A study of Mus musculus with 9 samples.

Results

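ABC transporters, organic anion transporting polypeptides (Slco genes) and organic cation, carnitine and anion transporters (Slc22a genes) were followed in RNA-sequencing of mouse intestinal epithelium grown in Matrigel. Members were all genes of the deposited count table with a symbol of these families (Abca to Abcg, Slco or Slc22a with a number) and at least 1 read in any library. The families had 90 symbols in the table, and 68 of them qualified out of 25054 genes with at least 1 read: 45 Abc, 10 Slco and 13 Slc22a genes, all protein-coding. Of the 68, 47 had a TPM (abundance per gene length, on a scale with the same total in every library) of at least 1 in at least 1 library and were tested, among 16208 genes.

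The 9 libraries were made from 3 groups of 3. Of these, 6 came from organoids of the small intestine of wildtype C57BL/6 mice, kept for 24 hr in conditioned medium mixed with concentrated organoid medium. The conditioned medium came from tumoroids (T-cM) or from wildtype organoids (WT-cM). For these libraries the titles and the treatment fields name opposite media, so the groups carry the name of their title (T-cM-titled or WT-cM-titled), and every direction between them turns round should the treatment field be right. The other 3 libraries were untreated tumoroids grown for 24 hr, from intestinal tumours of Apc1638N/+ mice of strain label MIX, which carry 1 mutant copy of the Wnt pathway gene Apc. The design text gives 3 mice for the organoids and 3 for the tumoroids. The labels list EGF, Noggin and R-spondin1 in the medium of every library, while the study's methods grow tumoroids without R-spondin, and the tumour donors were older than the organoid donors. Genotype, strain, age and medium therefore cannot be told apart between tumoroids and organoids. Each culture is a mixture of epithelial cell types, and in bulk RNA fewer cells of a type and less RNA per cell cannot be told apart.

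Transporters of these families decide which small molecules stay in an intestinal cell. ABC proteins use ATP to push their cargo through a membrane, and those of the apical membrane return drugs, bile pigments and plant sterols to the gut lumen, while others load lipid onto lipoproteins or serve peroxisomes and mitochondria. Slco and Slc22a proteins need no ATP of their own and mostly bring organic anions, cations, carnitine and drugs into cells. Mature enterocytes of the villus are known to carry much of this machinery.

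The libraries held 16541635 to 25170966 reads on genes, and 3 reads, taken as the limit of detection, corresponded to 0.103 to 0.204 CPM (reads of a gene scaled to the normalised library size). This limit covers counting error only. The 8 epithelial markers examined had a summed TPM of 11741 to 15898 in organoids and 13098 to 14894 in tumoroids, with Krt18 called higher there and Krt19 and Vil1 called lower. The 10 enterocyte markers had a summed TPM of 29240 to 63197 in organoids and of 169, 439 and 91.7 in tumoroids 1, 2 and 3, and all 10 were lower in tumoroids. Fibroblast markers had a summed TPM of at most 0.53 in organoids and 0.27 to 1.5 in tumoroids, with Col3a1 and Lum at 0 in all libraries. Endothelial markers reached 0.73 in organoids and 3.06 in tumoroids, with Kdr and Emcn at 0. Immune markers had a summed TPM of 1.26 to 3.46 in organoids and of 12.2, 17 and 58.8 in tumoroids, with Cd3e at 0.

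The members with the highest levels in organoids were genes of the apical and basolateral membranes and the peroxisome. By mean TPM over the 6 organoid libraries, the order was Abcb1a with 226 ± 50.3 (SD), Abcg5 with 221 ± 43.0, Abcc2 with 214 ± 45.1, Abcd3 with 201 ± 21, Abcc3 with 147 ± 27.2 and Abcg8 with 145 ± 35. Neighbours in this order differed by less than the SD of either, except Abcd3 and Abcc3, which differed by more. Abcb1a encodes a P-glycoprotein that expels drugs, Abcc2 exports conjugated organic anions at the apical membrane, and Abcg5 and Abcg8 form the pump for plant sterols and cholesterol. Abcc3 exports conjugates across the basolateral membrane, and Abcd3 takes branched fatty acids and bile acid precursors into peroxisomes.

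In tumoroids the order was Abcc3 with 143 ± 56.0, Abcf2 with 140 ± 25.1, Abcf1 with 120 ± 4.57, Abce1 with 115 ± 23.3 and Abcb8 with 75.4 ± 10.2 (mean TPM ± SD, n = 3). Abcf1, Abcf2 and Abce1 have ATP-binding domains but no membrane part, and they are linked to ribosomes rather than to transport. Neighbours among the first 4 differed by less than the larger of their SDs, and Abcb8 was below Abce1 by more than either SD. The summed TPM of all 68 members was 2021 to 2501 in organoids and 1092, 1834 and 1303 in tumoroids, so tumoroid 2 lay nearest to the organoids.

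**Figure D1:**
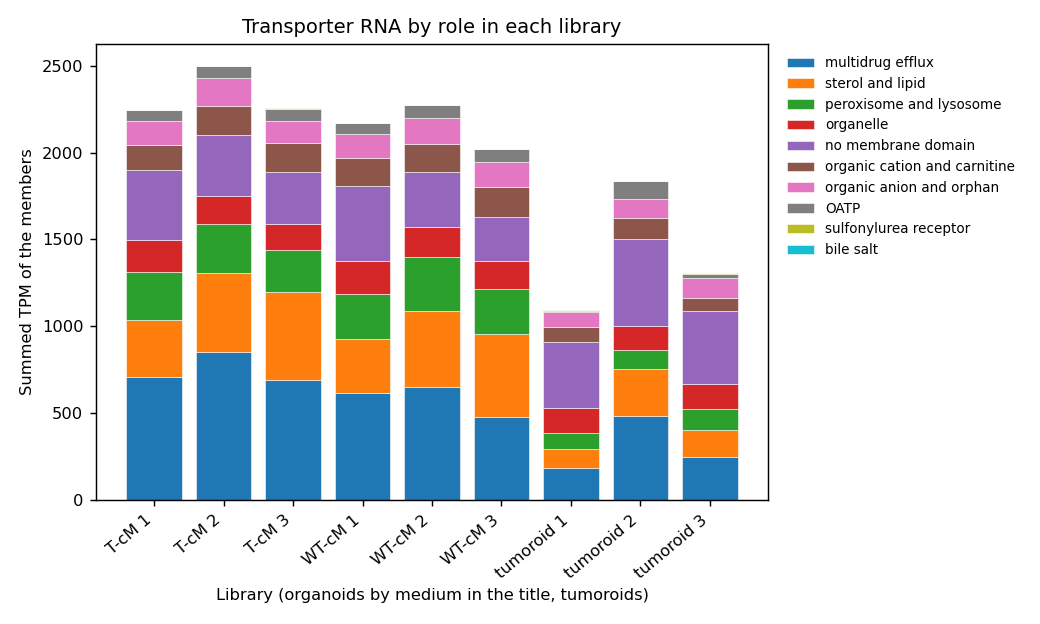
Summed TPM of the 68 members in each of the 9 libraries, stacked by role. Multidrug efflux genes make up 478 to 848 TPM in organoids and 181, 479 and 245 TPM in tumoroids 1, 2 and 3, while proteins with no membrane domain make up 254 to 434 TPM in organoids and 382 to 501 TPM in tumoroids.

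The plot of summed TPM by role shows how the groups of transporters differed. The sterol and lipid group had a summed TPM of 311 to 506 in organoids and of 112, 276 and 154 in tumoroids. The peroxisome and lysosome group had 245 to 312 in organoids and 90.1, 108 and 123 in tumoroids. Organic cation and carnitine transporters had 144 to 173 in organoids and 84.7, 121 and 78.1 in tumoroids. The organic anion and orphan group had 129 to 162 in organoids and 85.6, 108 and 114 in tumoroids, and the organelle group had 149 to 191 and 145, 139 and 141. For these 5 groups every tumoroid library was below every organoid library, whereas the multidrug efflux sum of tumoroid 2, 479 TPM, was within the range of the organoids. The OATP group had 58.3 to 73.9 in organoids and 8.80, 103 and 23.5 in tumoroids, with tumoroid 2 above the organoids and the others below. TPM and the CPM used in the tests are scaled differently, the first to the library total and the second to TMM library sizes, so small differences can take opposite signs on the scales.

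The first comparison asked which transporters differed between organoids in the 2 conditioned media. Counts of the 6 organoid libraries were fitted with edgeR's quasi-likelihood test, with the replicate number as a block and Benjamini-Hochberg adjustment over all 16208 genes. With an absolute log2 fold change above 1, 2 of the 47 tested members were called, against 179 of all genes tested (1.1%). Without a fold threshold in T-cM-titled organoids 8 members were higher and 4 were lower at an adjusted p under 0.05, against 5.03% of all genes higher and 5.05% lower. The median log2 fold change was 0.07 over the 47 members and 0 over all genes, and 30 of 47 members and 48.6% of all genes had a positive value.

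Of the 10 tested multidrug efflux genes, 5 were higher and none lower in T-cM-titled organoids at an adjusted p under 0.05, against the 5.03% and 5.05% of all genes. Abcc5 (ENSMUSG00000022822.15, chr16:20331303-20426394 on the minus strand of mm10) exports cyclic nucleotides and other organic anions. Abcc5 was at 40.1, 124 and 133 CPM in T-cM-titled replicates 1, 2 and 3, and at 19.3, 18.4 and 23.3 CPM in the WT-cM-titled ones. Every T-cM-titled library was above every WT-cM-titled one, and replicate pair 1 had the smallest ratio, 2.08 against 6.74 and 5.70 in pairs 2 and 3. The log2 fold change of Abcc5 was 2.15 (standard error, SE, 0.17, edgeR adjusted p = 7.6e-10), which is 4.44-fold, and no other tested member had as large a value. Other methods gave log2 fold changes of 2.02 to 2.22 with larger adjusted p. These were 0.00057 with edgeR's newer quasi-likelihood form, 0.0016 with DESeq2, 0.012 with limma voom and 0.28 with limma on log2 TPM. Without replicate pair 2 the log2 fold change of Abcc5 was 1.83, with an adjusted p of 0.20 from edgeR, and without the block it was 2.30 with an adjusted p of 0.60. The 250 bases before its RefSeq start site are shown because Abcc5 was the member that changed most between the media (GRCm38.p6, chr16:20426395-20426644, minus strand, 5′ to 3′).

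Abcc5 upstream: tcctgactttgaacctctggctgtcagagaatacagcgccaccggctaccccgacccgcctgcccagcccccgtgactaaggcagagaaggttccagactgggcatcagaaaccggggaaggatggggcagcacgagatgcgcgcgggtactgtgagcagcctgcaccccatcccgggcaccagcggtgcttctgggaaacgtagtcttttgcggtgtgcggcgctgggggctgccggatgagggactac

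The stretch held no match on either strand to GGAATG, the core bound by TEAD factors, or to AGATAA, the core bound by GATA factors. Over all 32851 RefSeq start windows of mouse (250 bases before to 50 after the start), 14.663% held GGAATG and 11.178% held AGATAA. Of 64 such windows of the members, from the 53 members with a window, 15 held GGAATG and 8 held AGATAA.

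The drug pump gene Abcb1a was at 537, 655 and 534 CPM in T-cM-titled organoids and at 451, 495 and 340.3 CPM in WT-cM-titled ones. The groups did not overlap, and the log2 fold change was 0.45 (SE 0.08, edgeR adjusted p = 0.00029). Abcc3 likewise did not overlap, with 390.2, 405 and 360.4 CPM against 316, 312 and 260.4 CPM, and a log2 fold change of 0.40 (edgeR adjusted p = 0.00063). Abcc2 was at 676, 1008 and 757 CPM against 605, 826 and 591 CPM. Its groups overlapped, yet each of the 3 pairs was higher in the T-cM-titled library, by a log2 fold change of 0.28 (edgeR adjusted p = 0.011). Abcc4, an exporter of cyclic nucleotides and prostaglandins, was at 8.25, 5.22 and 5.35 CPM against 7.69, 3.28 and 2.57 CPM. Its log2 fold change of 0.57 stood at the threshold (edgeR adjusted p = 0.049) and missed it with other scaling factors.

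The other multidrug efflux genes did not pass the test between media. Abcb1b was at 0.846, 0.678 and 0.620 CPM in T-cM-titled organoids and at 0.495, 0.365 and 0.221 CPM in WT-cM-titled ones. That is 5 to 16 counts per library, with a log2 fold change of 1.02 (SE 0.50, edgeR adjusted p = 0.23). Abcg2, which expels drugs and urate, was at 102, 96.7 and 90.3 CPM in T-cM-titled organoids and at 84.6, 114 and 108 CPM in WT-cM-titled ones, with overlapping groups and an adjusted p of 0.75 from edgeR. Abcc1, the multidrug resistance protein of many dividing cells, was higher in the T-cM-titled library of every pair, with a log2 fold change of 0.27 (SE 0.10, edgeR adjusted p = 0.11).

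Among uptake carriers, Slco4a1 and Slc22a4 were higher and Slco2b1 was lower in T-cM-titled organoids. Slco4a1, a thyroid hormone and prostaglandin carrier, was at 13.4, 39.7 and 28.6 CPM against 13.7, 9.67 and 10.5 CPM. The T-cM-titled library was higher in pairs 2 and 3 and level in pair 1, with a ratio of 0.98. The log2 fold change of Slco4a1 was 1.18 (SE 0.20, edgeR adjusted p = 0.00018). Without replicate pair 2 it was 0.73 with an adjusted p of 0.52 from edgeR. Slco4a1 did not pass with limma voom (adjusted p = 0.069) or DESeq2 (adjusted p = 0.26).

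Slc22a4, the carrier of the antioxidant ergothioneine, was at 17.2, 47.4 and 43.4 CPM in T-cM-titled organoids and at 15.2, 19.5 and 25.7 CPM in WT-cM-titled ones. Pair 1 again differed least, with a ratio of 1.13 against 2.43 and 1.69, and the log2 fold change was 0.77 (SE 0.13, edgeR adjusted p = 0.00022). Its neighbour Slc22a5, the carnitine carrier, was at 36.5, 35.8 and 37.6 CPM against 33.5, 44.6 and 42.5 CPM and did not pass the test (log2 fold change −0.11, edgeR adjusted p = 0.59). The start sites of Slc22a4 and Slc22a5 lie on the same strand of chromosome 11, and the gap between the annotated genes is 91.5 kb. Slc22a21, another carnitine carrier gene, lies between them, and 13.7% of the 100-base windows of the Slc22a5 transcript also occur in Slc22a21, so that reads there could have been counted on either gene.

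Slco2b1, an uptake carrier of steroid sulphates and drugs, was at 109, 115 and 136 CPM in T-cM-titled organoids and at 123, 159.7 and 171 CPM in WT-cM-titled ones. All 3 pairs were lower in the T-cM-titled library although the groups overlapped, and the log2 fold change was −0.31 (edgeR adjusted p = 0.011).

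Lipid transporters gave 2 more differences. Abca7, a phospholipid exporter, was at 63.1, 87.5 and 91.3 CPM against 60.3, 57.6 and 65.0 CPM (log2 fold change 0.40, edgeR adjusted p = 0.0063). Abca2, a lysosomal lipid transporter, was at 26.3, 18.5 and 17.1 CPM against 35.7, 24.2 and 28.7 CPM, lower in the T-cM-titled library of all 3 pairs (log2 fold change −0.52, edgeR adjusted p = 0.0017). The subunits of the sterol pump did not pass the test between media. Abcg5 had a log2 fold change of 0.10 (SE 0.08) and Abcg8 one of 0.00 (SE 0.08).

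**Figure D2:**
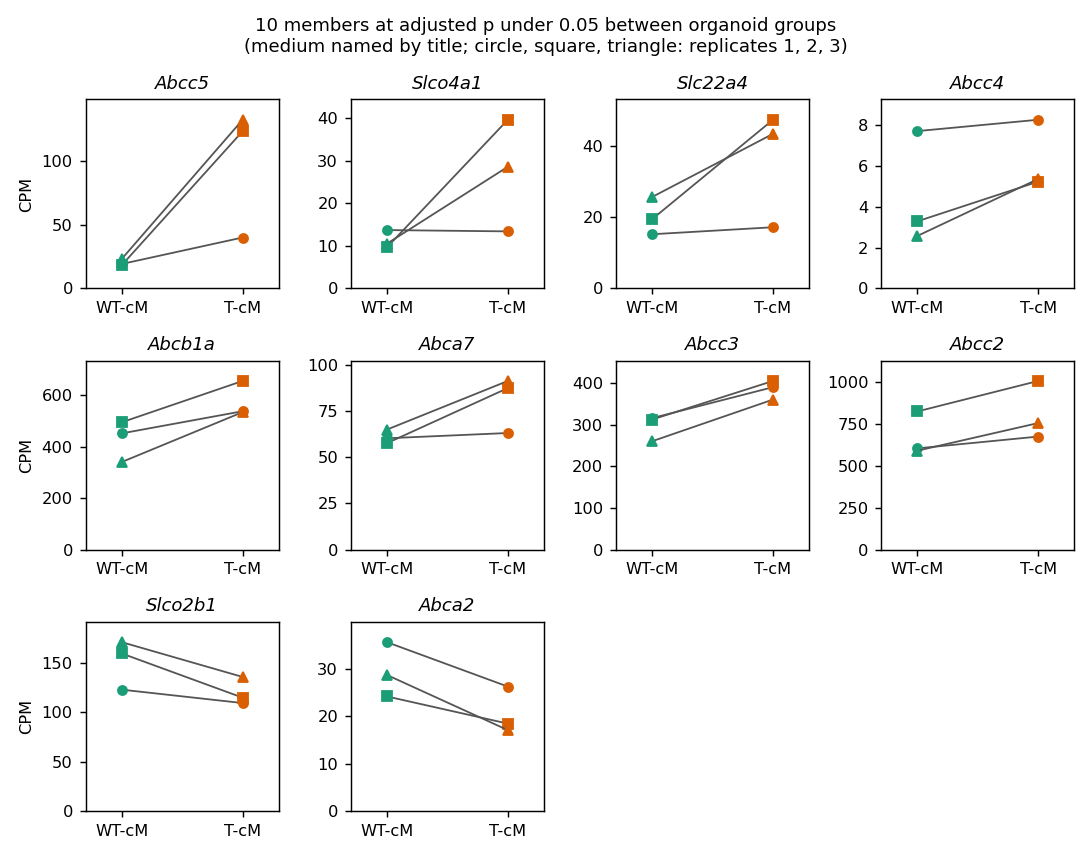
CPM of 10 of the 12 members at an adjusted p under 0.05 between organoid groups, each line joining the WT-cM-titled and T-cM-titled library of 1 replicate number, with vertical axes from 0 that differ between panels. The 8 genes that were higher in T-cM-titled libraries come first and 2 that were lower last, and in Abcc5, Slco4a1 and Slc22a4 replicate 1 (circles) shows the smallest difference.

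In the plot of replicate pairs, all 3 pairs moved the same way for 9 of the 10 genes shown, the exception being Slco4a1. The genes shown were picked by a test on these same pairs, which favours such agreement. Of the 47 tested members, 16 were higher and 9 lower in all 3 pairs, and the share over all genes was not counted. The calls between media rested on the pairing of replicates. Without the block 0 members and 0 of all genes passed an adjusted p of 0.05 in edgeR, and 8 members had an unadjusted p below 0.05, where the blocked fit gave 15. Leaving out replicate pair 2 left 0 members and 1 of all genes, and 11 members had an unadjusted p below 0.05. With the block and all 3 pairs, limma voom gave 4 members and DESeq2 9. Enterocyte markers also differed between these groups, with 1 of 10 higher and 5 of 10 lower in the T-cM-titled group at an adjusted p under 0.05, where 5.03% of all genes were higher and 5.05% lower. Their summed TPM was 30607 to 42003 against 29240 to 63197. Of 6 Paneth markers 4 were lower and none higher, with a summed TPM of 15845 to 17403 against 17412 to 20512. The part of either marker group in the transporter differences was not tested.

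The second comparison set tumoroids against the mean of both organoid groups, which is the same under either label of the medium. All 9 libraries were fitted without a block, and the thresholds were those of the first comparison, an adjusted p of 0.05 and a log2 fold change of 1 in either direction. The fit takes organoid libraries as independent, although same-numbered ones deviated together across genes (Pearson's r 0.546, 0.338 and 0.547). Its standard errors and adjusted p therefore leave out this pairing. Of the 47 tested members, 16 were lower and 8 higher in tumoroids, against 12.1% of all genes lower and 21% higher. With same-numbered organoid libraries summed, 15 were lower and 7 higher, beside 1845 and 2886 of all genes. In that fit Abcc2 (log2 fold change −2.93, edgeR adjusted p = 0.09) and Abca5 (1.21, edgeR adjusted p = 0.068) were no longer called. Among called members, Abca5, Abcb1b, Abcg1, Slc22a17 and Slco5a1 reached the TPM needed for testing only in tumoroids. Abca8b, Slc22a13 and Slco2b1 reached it only in organoids. Their entry to the test thus depended on the group where they were higher. In all 24 called members the tumoroid and organoid libraries did not overlap. Since the same libraries gave the calls, this is no further support, and its share over all genes was not counted. The median log2 fold change of the members was −0.36, and 19 of 47 were positive. Over all genes tested the median was 0.16 with 56.7% positive. Other scaling factors put that median between 0.10 and 0.27. A shift of this size could not turn the direction of a called member, since each exceeded the log2 fold change of 1.

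**Figure D3:**
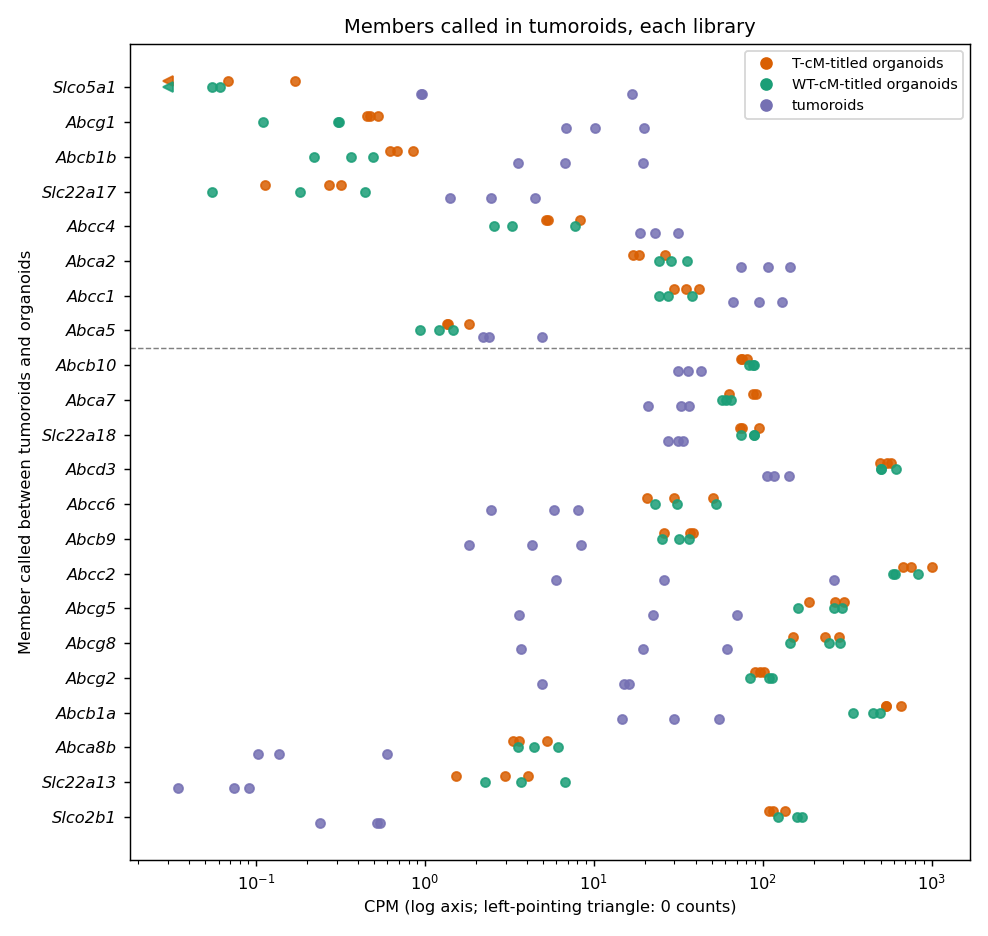
CPM on a log axis for 22 of the 24 members called between tumoroids and organoids, 1 point per library, ordered by log2 fold change with the 8 higher genes above the dashed line and 14 lower genes below it. Tumoroids (purple) do not overlap the organoids in any row, and the WT-cM-titled and T-cM-titled organoids lie close together beside that difference in most rows.

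The multidrug efflux group was split, with 4 of 10 tested members called lower and 3 called higher, against 12.1% and 21% of all genes. Abcb1a was at 340.3 to 655 CPM in organoids (median 514) and at 29.8, 55.1 and 14.6 CPM in tumoroids 1, 2 and 3. Every tumoroid was far below every organoid library, with a log2 fold change of −3.91 (SE 0.41, edgeR adjusted p = 5.3e-05), a 15-fold lower level. Its paralogue Abcb1b, which encodes the other mouse P-glycoprotein with overlapping cargo, went the other way. Abcb1b was at 0.221 to 0.846 CPM in organoids (median 0.557) and at 6.71, 3.53 and 19.5 CPM in tumoroids, with a log2 fold change of 4.28 (SE 0.50, edgeR adjusted p = 9.8e-05).

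Per length, Abcb1a had 935 to 2365 times the TPM of Abcb1b in organoids, and 6.47, 22.7 and 1.09 times in tumoroids 1, 2 and 3. In tumoroid 3 the paralogues were therefore at nearly the same level. The genes lie 49.6 kb apart on the plus strand of chromosome 5, and both coding sequences hold 3831 bases with 88.0% identity over 3822 aligned bases. Their first 60 coding bases are shown because reads must tell these genes apart, and the 4 positions that differ are in capitals (Gencode, 5′ to 3′).

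Abcb1a: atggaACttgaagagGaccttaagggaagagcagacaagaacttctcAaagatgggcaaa
Abcb1b: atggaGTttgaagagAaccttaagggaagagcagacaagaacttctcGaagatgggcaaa

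Of the 100-base windows of the transcripts, 7.72% of those of Abcb1a occur in Abcb1b or Abcb4 and 8.52% of those of Abcb1b occur in Abcb1a. A read pair can be longer than such a window, and how shared reads were counted is not given in the sources used here. The third gene of this cluster, Abcb4, a phosphatidylcholine exporter of the liver, had at most 7 counts in any library and was not tested.

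Abcc2 was at 591 to 1008 CPM in organoids (median 716) and at 26.0, 264 and 5.98 CPM in tumoroids. Tumoroid 2 stood apart from the other tumoroids but was still below every organoid library, and the log2 fold change was −2.91 (SE 0.98, edgeR adjusted p = 0.032). The call was lost without T-cM-titled organoid 2 (edgeR adjusted p = 0.057), WT-cM-titled organoid 2 (0.058) or tumoroid 1 (0.095), while without tumoroid 2 the log2 fold change was −5.56 (adjusted p = 0.00011). Abcg2 was at 84.6 to 114 CPM in organoids (median 99.2) and at 15.2, 16.2 and 4.91 CPM in tumoroids, an 8.22-fold lower level (log2 fold change −3.04, SE 0.36, edgeR adjusted p = 9.8e-05). Abcc6, which releases ATP from cells, fell as well, from a median of 30.4 CPM to 5.80, 8.07 and 2.47 CPM (log2 fold change −2.67, edgeR adjusted p = 0.0011).

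Abcc1 and Abcc4 were higher in tumoroids. Abcc1, which lies in the basolateral membrane of epithelia, was at 24.4 to 41.7 CPM in organoids (median 32.5) and at 66.9, 94.7 and 129 CPM in tumoroids (log2 fold change 1.57, SE 0.21, edgeR adjusted p = 0.00024). Abcc4 was at 2.57 to 8.25 CPM in organoids (median 5.29) and at 23.1, 18.7 and 31.4 CPM in tumoroids (log2 fold change 2.20, SE 0.34, edgeR adjusted p = 0.00048). The TPM of Abcc2 was 23.0 to 48.9 times that of Abcc1 in organoids and 0.563, 4.05 and 0.067 times in tumoroids 1, 2 and 3.

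The basolateral exporter Abcc3 differed less. It was at 260.4 to 405 CPM in organoids (median 338) and at 154, 306 and 223 CPM in tumoroids, with overlapping libraries and a log2 fold change of −0.57 (edgeR adjusted p = 0.041), short of the fold threshold. Abcc5 was at 44.0, 162 and 52.8 CPM in tumoroids, within the spread of the T-cM-titled organoids apart from tumoroid 2, and did not pass the test against both organoid groups (log2 fold change 0.94, edgeR adjusted p = 0.11). When tumoroid 2 was left out this value was 0.10 (adjusted p = 0.86). With WT-cM-titled organoids as the only controls the log2 fold change of Abcc5 was 2.08 and it was called, while against the T-cM-titled ones alone the value was −0.20 (adjusted p = 0.79). The comparisons of Abcc5 between media and with tumoroids share the organoid libraries. Abcc10 was not called, with a log2 fold change of −0.71 (edgeR adjusted p = 0.052).

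Of the 10 tested sterol and lipid transporters, 4 were called lower and 3 higher, against the same shares of all genes (12.1% and 21%). Abcg5 was at 162 to 302 CPM in organoids (median 265) and at 22.5, 70.2 and 3.61 CPM in tumoroids. Abcg8 was at 144 to 288 CPM (median 240.4) and at 19.4, 61.2 and 3.71 CPM. The tumoroids kept the same order for both subunits, with tumoroid 2 highest and tumoroid 3 lowest. The log2 fold changes were −2.94 (SE 0.75, edgeR adjusted p = 0.0089) for Abcg5 and −3.0 (SE 0.74, edgeR adjusted p = 0.0074) for Abcg8. The TPM of Abcg5 was 1.35 to 1.73 times that of Abcg8 in all 9 libraries. These genes are transcribed away from each other on chromosome 17. The 109 bases between their RefSeq start sites are shown because both genes moved together (GRCm38.p6, chr17:84683012-84683120, plus strand, 5′ to 3′, with Abcg5 to the left and Abcg8 to the right).

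Between Abcg5 and Abcg8: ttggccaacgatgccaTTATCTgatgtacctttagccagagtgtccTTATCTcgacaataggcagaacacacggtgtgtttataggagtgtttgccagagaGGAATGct

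Capitals mark the matches to AGATAA on the opposite strand, which read TTATCT here, and 1 match to GGAATG. A further start site of Abcg8 lies within Abcg5, so that the annotated genes overlap by 6710 bases.

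**Figure D4:**
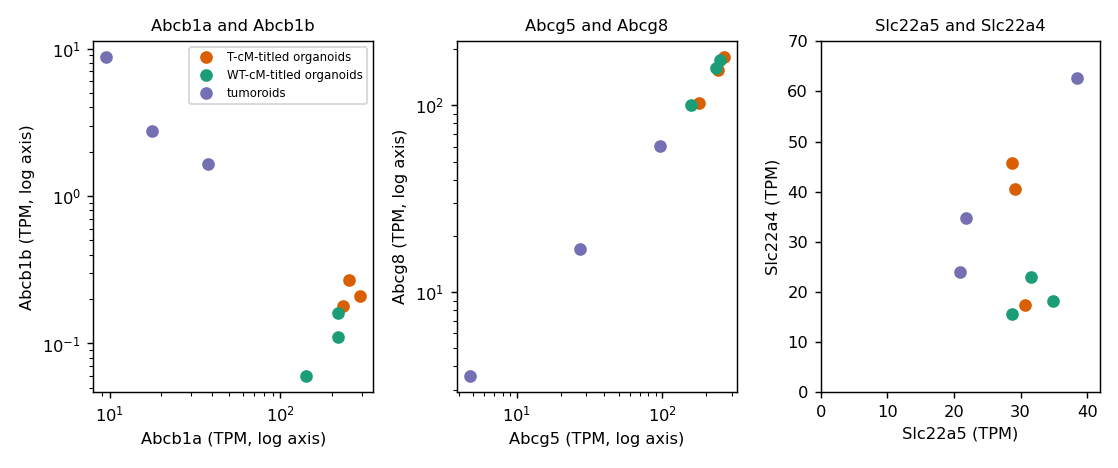
TPM of neighbouring or paralogous genes plotted against each other in the 9 libraries, on log axes for Abcb1a with Abcb1b and Abcg5 with Abcg8 and on linear axes for Slc22a5 with Slc22a4. Tumoroids have less Abcb1a and more Abcb1b than any organoid library, Abcg5 and Abcg8 lie along 1 line, and the T-cM-titled replicates 2 and 3 have more Slc22a4 at a similar level of Slc22a5.

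In the plot of gene pairs the ratio of Slc22a4 to Slc22a5 TPM was 0.566, 1.59 and 1.39 in T-cM-titled organoids 1, 2 and 3. It was 0.546, 0.525 and 0.727 in WT-cM-titled organoids and 1.14, 1.63 and 1.59 in tumoroids.

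Abcg1, which hands cholesterol to lipoproteins and is known for its role in macrophages, was at 0.110 to 0.529 CPM in organoids (median 0.380) and at 6.80, 10.1 and 19.9 CPM in tumoroids. The log2 fold change of Abcg1 was 5.14 (SE 0.40, edgeR adjusted p = 8.9e-06). The summed immune markers given above were also highest in tumoroid 3, and their part in this difference was not tested. Abca2 was at 17.1 to 35.7 CPM in organoids (median 25.2) and at 74.4, 107 and 144 CPM in tumoroids (log2 fold change 2.14, SE 0.22, edgeR adjusted p = 4.2e-05). Abca5, another lysosomal lipid transporter, was at 0.930 to 1.83 CPM (median 1.36) against 2.40, 4.91 and 2.20 CPM, with a log2 fold change of 1.23 (SE 0.35, edgeR adjusted p = 0.014). Without tumoroid 2 its log2 fold change was 0.76 with an adjusted p of 0.091.

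Abca1, which starts high-density lipoprotein formation, was at 4.65 to 15.9 CPM in organoids (median 10.7) and at 11.2, 18.7 and 32.4 CPM in tumoroids. The libraries overlapped and the difference was not called (log2 fold change 0.99, edgeR adjusted p = 0.086). Without tumoroid 3 the value for Abca1 was 0.50 (adjusted p = 0.40), while it passed both thresholds without tumoroid 1 (1.29, adjusted p = 0.047), with the replicate block (1.00, adjusted p = 0.016) and with limma on log2 TPM (1.32, adjusted p = 0.02). Abca7 fell from a median of 64.1 CPM to 21, 36.6 and 32.6 CPM (log2 fold change −1.22, edgeR adjusted p = 0.00069). Abca8b was at 3.33 to 6.14 CPM in organoids (median 4.01) and at 0.136, 0.595 and 0.103 CPM in tumoroids (log2 fold change −3.94, SE 0.59, edgeR adjusted p = 0.00043). Abca3, a phospholipid transporter of lamellar bodies, did not pass the test (log2 fold change 0.27, edgeR adjusted p = 0.26), and 9.54% of the windows of its transcript are antisense to an overlapping gene.

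The lower members also included Abcd3, Abcb9 and Abcb10, which serve organelles. Abcd3 was at 492 to 618 CPM in organoids (median 524) and at 106, 117 and 144 CPM in tumoroids, close to each other and a 4.41-fold lower level (log2 fold change −2.14, SE 0.16, edgeR adjusted p = 8.2e-06). Abcd4, a lysosomal protein needed for vitamin B12 handling, was not called (log2 fold change −0.48, edgeR adjusted p = 0.054). Abcb9, a lysosomal peptide transporter, fell from a median of 34.3 CPM to 8.34, 1.82 and 4.29 CPM (log2 fold change −2.76, edgeR adjusted p = 0.00055). Abcb10, a mitochondrial transporter linked to haem synthesis, fell from a median of 81.9 CPM to 36.1, 31.5 and 43.0 CPM (log2 fold change −1.14, edgeR adjusted p = 6.4e-05). The 4 proteins with no membrane domain had log2 fold changes between −0.34 and 0.02 and none was called. Among them Abcf1 was at 171 to 213 CPM in organoids and at 157, 148 and 147 CPM in tumoroids (edgeR adjusted p = 0.038, short of the fold threshold), although the summed TPM of these 4 genes was 254 to 434 in organoids and 382 to 501 in tumoroids.

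Among the OATP genes, Slco2b1 changed more than any other tested member. It was at 109 to 171 CPM in organoids (median 129) and at 0.544, 0.521 and 0.240 CPM in tumoroids. The log2 fold change was −8.28 (SE 0.29, edgeR adjusted p = 3.4e-07). From 14904 counts in the 6 organoid libraries and 33 in the 3 tumoroid libraries, the level was 325-fold lower, with an exact 95% interval of 231 to 472 for counting error only. Slco5a1, a little-studied member of the family, had 6 counts in all organoid libraries together and 539 in tumoroids. It was at 0.952, 0.967 and 16.9 CPM in tumoroids, so tumoroid 3 held most of the reads. The ratio was 125 with a counting interval of 57.1 to 342, and the log2 fold change from edgeR was 6.73 (SE 1.13, adjusted p = 0.00086), or 4.00 (adjusted p = 0.0017) without tumoroid 3.

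The other 3 tested OATP genes were not called. Slco4a1 was at 8.16, 113 and 20.2 CPM in tumoroids against 9.67 to 39.7 CPM in organoids, with tumoroid 2 alone above the organoids (log2 fold change 1.43, edgeR adjusted p = 0.096). Without tumoroid 2 its direction turned, with a log2 fold change of −0.32 (adjusted p = 0.58), and without tumoroid 1 it was called (1.92, adjusted p = 0.018). Slco2a1, the prostaglandin carrier, was likewise high in tumoroid 2 alone, at 7.93, 45.8 and 9.31 CPM against 10.4 to 17.1 CPM, and its log2 fold change turned from 0.56 (edgeR adjusted p = 0.37) to −0.73 (adjusted p = 0.03) without that library. Slco3a1 was at 1.16 to 4.18 CPM in organoids and at 1.68, 2.94 and 0.343 CPM in tumoroids. Tumoroid 2 was the highest tumoroid for Abcc2, Abcc5, Abcg5, Abcg8, Slco2a1 and Slco4a1, and also for others such as Abcb1a, Abcc3, Abcc6 and Abca7. It was the lowest tumoroid for Abcb1b, Abcb9, Abcb10, Abcc4, Abcc8 and Slc22a18, among others. It also had the highest enterocyte marker sum and the highest mitochondrial share of reads among tumoroids (2.17%, against 0.701 and 0.817%), and the lowest sums of goblet markers (387 TPM, against 1626 and 1760) and Paneth markers (974 TPM, against 8816 and 6093). The part of these values in the transporter levels was not tested.

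The carnitine carrier Slc22a5 was at 33.5 to 44.6 CPM in organoids and at 19.6, 31.7 and 18.7 CPM in tumoroids, all below the organoids but short of the fold threshold (log2 fold change −0.72, edgeR adjusted p = 0.012). Slc22a4 was at 18.7, 42.9 and 24.7 CPM in tumoroids, within the organoid range of 15.2 to 47.4 CPM. Slc22a3, an organic cation carrier, was at 0.317 to 1.47 CPM in organoids and at 0.861, 0.223 and 0.103 CPM in tumoroids and was not called (log2 fold change −0.93, edgeR adjusted p = 0.30). Without tumoroid 1 its log2 fold change was −2.16 (adjusted p = 0.038).

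The organic anion and orphan members were called in both directions. Slc22a13, an orotate and urate carrier, was at 1.53 to 6.77 CPM in organoids (median 3.35) and at 0.0906, 0.0744 and 0.0343 CPM in tumoroids, which is 400 against 5 counts. Each tumoroid library was under the detection limit of 3 reads for this gene and cannot be told from 0. The ratio of organoids to tumoroids was 57.5 with a counting interval of 24.4 to 178, and the log2 fold change was −5.62 (SE 0.65, edgeR adjusted p = 8.8e-05). Of the windows of its transcript, 21.8% also occur in a neighbouring pseudogene. Slc22a18, an imprinted gene of unsettled cargo, fell from a median of 82.2 CPM to 31.6, 27.7 and 33.8 CPM (log2 fold change −1.41, edgeR adjusted p = 3.3e-05). Slc22a17, a lipocalin receptor, was at 0.0550 to 0.443 CPM in organoids (median 0.227) and at 1.40, 2.45 and 4.50 CPM in tumoroids (log2 fold change 3.55, SE 0.57, edgeR adjusted p = 0.00065).

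Abca12, Abcb8, Abcc8, Abcf3, Slc22a15, Slc22a21 and Slc22a23 were tested and not called in either comparison. Among them Abcc8, a subunit of potassium channels that respond to ATP, was at 1.24 to 1.86 CPM in organoids and at 5.85, 0.483 and 5.50 CPM in tumoroids, so tumoroid 2 was below the organoids and the others above.

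The remaining 21 members stayed under a TPM of 1 in every library and were not tested, and 11 of them had at most 3 counts in any library. The bile salt export pump Abcb11, which defines liver canaliculi, was among the 11, with at most 2 counts. Some of the other 10 were seen mainly in tumoroids. Abca4 had 0 or 1 count per organoid library and 15, 46 and 66 counts in tumoroids 1, 2 and 3. Abca13 had 0 to 6 counts in organoids and 2, 124 and 27 in tumoroids. Abcc9, a regulatory subunit of potassium channels, had 0 counts in all organoid libraries and 2, 10 and 27 in tumoroids. Slco1a5 had 0 counts in organoids and 0, 1 and 25 in tumoroids, so that nearly all its reads came from tumoroid 3. Abca14 went the other way, with 5 to 16 counts in organoids and 0, 1 and 2 in tumoroids.

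The other genes of the pathway were followed as a list of 26 partners of the transporters, all of them tested. They cover bile acid carriers, nuclear receptors that control transporter genes, extrusion pumps for cations, scaffolds and further drug carriers. In tumoroids 17 of the 26 partners were called lower and 3 higher, against 12.1% of all genes lower and 21% higher. The basolateral bile acid carrier subunits Slc51a and Slc51b had log2 fold changes of −4.70 and −5.91, the cholesterol uptake protein Npc1l1 one of −4.28 and the peptide carrier Slc15a1 one of −4.83. Each of these genes was highest in tumoroid 2 among tumoroids, as Slc15a1 with 0.453, 4.54 and 1.20 CPM in tumoroids 1, 2 and 3. The drug-sensing receptors Nr1i2 and Nr1i3 had log2 fold changes of −1.61 and −4.30, the bile acid receptor Nr1h4 one of −1.79 and the enterocyte regulator Hnf4a one of −1.16. The partners that were higher were Fgf15 (log2 fold change 4.11), a hormone made on bile acid sensing, the aryl hydrocarbon receptor Ahr (2.10) and the nucleoside carrier Slc29a1 (1.26). Ahr was at 77.0, 108 and 326 CPM in tumoroids 1, 2 and 3, so tumoroid 3 was well above the others. The apical bile acid carrier Slc10a2 and the chloride channel Cftr, itself an ABC protein, were not called (log2 fold changes 0.48 and 0.01).

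Between the media 2 partners were higher and 5 were lower in the T-cM-titled group at an adjusted p under 0.05, against 5.03% of all genes higher and 5.05% lower. The scaffold gene Slc9a3r1, whose protein holds apical transporters in place, was at 438, 711 and 599 CPM against 353, 477 and 475 CPM (log2 fold change 0.42), and Ahr was the other (0.39). The lower partners were Slc47a1 (log2 fold change −0.66), which extrudes cations at the apical membrane, Slc15a1 (−0.62), the peptide transporter subunit Tap1 (−0.60), Slc29a1 (−0.58) and Slc51b (−0.57). None of them passed in the fit without the block.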

How the data were processed

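RNA of 9 libraries was sequenced after polyA selection with a stranded kit, as paired 100-base reads. Per the labels and the study's methods, the authors aligned reads to mm10 with STAR and counted them on Gencode genes. The authors deposited raw read counts, without normalisation, and TPM. The counting tool, its strand setting and its treatment of shared reads are not given in the sources used here. Groups and replicate numbers were taken from the titles. By the study's account the T-cM came from the sequenced tumoroids, but no label shows whether tumoroid and organoid numbers match.

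Genes reaching a TPM of 1 in any library entered the tests, run in R 4.3.3 with edgeR 4.0.16 (TMM factors, quasi-likelihood F test in its older form, Benjamini-Hochberg adjustment). The fit between organoid groups used 6 libraries with replicate number as a block, as the study's methods do. Same-numbered organoid libraries deviated together across genes (Pearson's r 0.546, 0.338 and 0.547), so that the numbers pair the samples. Tumoroids were compared over 9 libraries without a block. CPM values use TMM library sizes. Intervals of ratios of summed counts are exact at 95% and leave out all but counting error, because reads that carry no molecular tag need not stand for separate molecules. Standard errors were derived from the log2 fold change and the F statistic. The fits were tested on simulated data.

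Alternatives were limma 3.58.1 (voom, or log2 of TPM with a pseudocount of 0.5), DESeq2 1.42.0, other scaling factors and filters, the block left out or added, other control libraries and libraries left out. Positions are from Gencode M21 on the same build, and start windows from RefSeq (GRCm38.p6). Shared windows were found by matching all 100-base stretches of the annotated transcripts.

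The members, their roles, the partner and marker lists and the motifs were chosen with earlier results of these data known. Values are given in full for every member at an adjusted p under 0.05 between organoid groups, for the 8 members called in tumoroids with the largest change in each direction and a mean count of 20 or more in the group where they were higher, and for known intestinal carriers and gene pairs. The values of 3 members are not reported here, though the counts and sums include them.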

Additional observations from a re-analysis of the deposited data

How the results depend on the processing

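Between the organoid groups the number of members depended on the pairing of replicates and on replicate pair 2. Members called with the fold threshold numbered 2, and 1 with limma voom, 1 with DESeq2, 0 with limma on log2 TPM, 0 without the replicate block, 0 over all 9 libraries and 0 to 3 with a replicate pair left out. In the same order the numbers over all genes were 179, and 104, 93, 0, 0, 0 and 1 to 385. Members at an adjusted p under 0.05 numbered 12, and 4 with limma voom, 0 with log2 TPM, 0 without the replicate block, 0 over all 9 libraries and 0 to 16 with a pair left out, the 0 being without pair 2 and the 16 without pair 1. Without pair 3 it was 5. The number over all genes moved as well, from 1634 to 581 with limma voom, 1 without pair 2, 2872 without pair 1 and 533 without pair 3, and to 0 in the other fits with 0 members. Partner genes numbered 7, and 3 with limma voom, 4 with DESeq2, 0 with log2 TPM, 0 without the block, 0 over all 9 libraries and 0 to 10 with a pair left out. Where 0 members passed, the number at an unadjusted p under 0.05 was 14 with log2 TPM, 8 without the block, 1 over all 9 libraries and 11 without pair 2. The cause was not tested, except that leaving out a pair leaves 1 residual degree of freedom.

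In tumoroids the replicate block gave 10 higher and 16 lower members (3387 and 2022 of all genes). Higher members numbered 7 to 10 over the other alternatives (2886 to 4795 of all genes, against 3400) and 14 without the TPM filter (4024 of all genes), where low genes such as Abca4, Abca13 and Abcc9 were tested too. Lower members numbered 13 to 18 with the fold threshold (1279 to 2132 of all genes, against 1963). The smallest number came from log2 TPM, where Abca7, Abcb10 and Slc22a18 fell short of the fold threshold. Called partners numbered 20, and 16 to 20 over the alternatives (4731 to 6123 of all genes, against 5363). No member called in either comparison reversed. Abca5 lost its call against T-cM-titled organoids alone and with same-numbered organoid libraries summed, and Abcc2 against WT-cM-titled organoids alone and with the libraries summed. At 3 replicates per group a p-value sets each difference against a spread estimated from few samples, and members below 3 counts cannot be told from 0.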
